A study of Mus musculus with 16 samples.

Results

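Synaptic vesicle release and SNARE genes were followed in whole retina of untreated C57BL6 mice on Illumina BeadChips, with 4 arrays in each of 4 groups. The groups were aged females and aged males, labelled 24 months, and young females and young males, labelled 3 months. The array titled as the first aged male carries an age field of 12 months and was kept in the group its title names. The members were every probe whose gene name in the annotation is a synaptotagmin, syntaxin, SNAP, VAMP, complexin, RIM, synapsin, SV2, Unc13 or syntaxin-binding protein. Of 25697 probes on the array 88 met this rule, for 59 genes. A probe was used if its detection p-value was under 0.05 on at least 4 of the 16 arrays, which left 65 member probes for 45 genes among 15016 probes tested. Levels are log2 normalised intensities, and differences are aged minus young, or female minus male, on that scale.

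A neuron releases transmitter when the membrane of a synaptic vesicle fuses with the plasma membrane. A SNARE on the vesicle (a VAMP) and SNAREs on the plasma membrane (a syntaxin and a SNAP25 family protein) zip into a bundle that pulls both membranes together. Unc13 and RIM proteins prepare the bundle, complexins hold it, and calcium binding to a synaptotagmin triggers fusion. Photoreceptors and bipolar cells of the retina release transmitter steadily at ribbon synapses, where syntaxin 3 is the usual plasma-membrane syntaxin, while amacrine cells use conventional synapses with syntaxin 1.

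The retinal markers were present: 8 of 9 rod, 8 of 8 cone and 10 of 10 bipolar cell genes were detected. Mean intensity lay between 158 and 240 per array and 52.6 to 57.0% of probes were detected. Arrays of a group correlated at 0.983 to 0.995. The 4 arrays of a group limit the precision, and the labels do not say that they came from separate animals, so a p-value here weighs only the spread from sample to sample. In whole retina, fewer cells of a type and less RNA per cell cannot be told apart. The arrays sat on 5 slides, and 1 of these held a single array, the fourth young female.

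Markers of other cells moved with age in the same arrays. Of 8 microglial markers 3 were called higher in aged females and 3 in aged males, with medians of 0.30 and 0.41. Their summed log2 level ranged from 8.55 to 9.0 in aged females and 8.21 to 8.44 in young females, and from 8.75 to 9.01 in aged males and 8.24 to 8.40 in young males. Of 6 pigment epithelium markers none was called in aged females (median 0.90) and 5 were higher in aged males (median 1.7). Their summed log2 level ranged from 10.30 to 11.55 in aged females and 8.76 to 10.81 in young females, and from 12.36 to 12.99 in aged males and 9.74 to 11.53 in young males. The 8 lens markers had a median of -0.7 in aging females and 0.34 in aging males. For the 3 detected blood markers the medians were 1.2 and 0.43, and no lens or blood marker was called. Itgam of the microglial list and Best1, Mitf and Tyr of the pigment epithelium list were not detected. Hba-a2 and Hbb-bt of the blood list were not detected either. The part of these cells and tissues in the results on the release genes was not tested.

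Of the 65 probes 59 were detected on all 16 arrays and 6 on 4 to 15 of them. Of the 23 that were left out, 17 were detected on no array and 6 on 1 to 3 arrays. The left-out probes were the only ones of 14 genes, among them Snap25, the main SNAP of neurons, and Syt2, a fast calcium sensor. Syn3, a synapsin, and Rims4, a short RIM protein, were also among them. The level of these genes was not measured here, and an undetected probe does not show that a transcript is absent. Roles were assigned from a written list of genes rather than from the array annotation, and the detected probes spread over them as follows. Vesicle SNAREs of exocytosis had 8 probes, plasma-membrane SNAREs 6, complexins 2, syntaxin-binding proteins 7 and priming and active zone proteins 7. Synaptotagmins had 12 probes, SV2 and synapsin proteins 6, the clathrin adaptor Snap91 had 2, and SNAREs of endosomes, Golgi and endoplasmic reticulum had 15.

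The members varied little between arrays of a group. Their within-group SD had a median of 0.13 and ranged from 0.06 to 0.42, and 56 of 65 were under 0.2, while the median over all tested probes was 0.15. The most variable were probes for syntaxin 3 (0.42 and 0.35) and Snap91 (0.34).

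Of the 65 release gene probes 1, Vamp5, rose with age when both sexes were averaged, and no member fell. All 65 differed by less than 0.25 between aged and young females, and 61 did between aged and young males. Vamp5, a vesicle-associated SNARE known first from muscle, rose by 0.35 (SE 0.08, adjusted p = 0.0348, limma). Over all tested probes 1.4% passed the same test upward, and 1.88% in either direction. In neither sex alone did a member pass, against 0.633% of all probes in females and 0.992% in males. With slide as a block Vamp5 passed in males (limma, adjusted p = 0.0463 with a fixed block and 0.037 with a random one). Over all alternative settings it failed in 20 of 27 in males, and the call for both sexes was lost in 15 of 26. At an unadjusted p under 0.05 there were 2 member probes in females and 10 in males, where 7.14% and 14.6% of all probes reached that level.

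Vamp5 stood at 5.04, 4.63, 5.22 and 4.76 in aged females, against 4.73, 4.49, 4.67 and 4.84 in young females. It stood at 4.88, 5.09, 4.94 and 5.23 in aged males, against 4.50, 4.63, 4.62 and 4.48 in young males. All 4 aged males lay above all 4 young males, while aged and young females overlapped. The difference was 0.23 (SE 0.12, adjusted p = 0.753) in females and 0.48 (SE 0.12, adjusted p = 0.0637) in males, and female minus male aging was -0.25 (95% interval -0.60 to 0.10, adjusted p = 0.626). The signal was close to background: the probe was detected on 4 aged female, 3 young female, 4 aged male and 1 young male array. Most of the young male group was thus at background, which limits the size given for males.

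The call on Vamp5 depended on the setting. Of 26 alternatives it was kept in 11 and lost in 15, with adjusted p between 0.0110 and 0.0936 and differences between 0.30 and 0.94. The largest came from intensities used without the normexp correction (0.93) and from the table scaled by the authors (0.94), neither of which adds the offset of 16. In females the difference ranged from 0.13, without the third aged female, to 0.57, without the normexp correction, and it passed in none of 27 alternatives. In males it ranged from 0.41 to 1.33, the highest from the authors' scaled table and 1.29 without the normexp correction. It passed in 7 of 27, which were the slide as a fixed or a random block, array weights (adjusted p = 0.0294), only the groups compared (0.0374), and the fits without aged female 2, aged female 3 or aged male 1. For both sexes, leaving out 1 array ended the call for young females 1 to 3, aged females 1 and 3, each young male and aged males 2 and 4. Without the aged male with the 12 month age field Vamp5 differed by 0.38 (adjusted p = 0.0309) for both sexes, and by 0.53 (adjusted p = 0.0489) in males. Within slides, aged minus young Vamp5 was 0.49 and 0.09 in females and 0.38 and 0.46 in males, all above 0. Because Vamp5 is known from muscle, the skeletal muscle markers are given: Ckm, Tnnt3 and Myh4 were not detected. The 2 others had a median of -0.095 in aged females and -0.10 in aged males. Microglial and pigment epithelium markers rose in the same arrays. The part of muscle, microglia or pigment epithelium in the Vamp5 difference was not tested.

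Vamp8, the vesicle SNARE of secretory and immune cells and of lysosome fusion, is the protein-coding neighbour of Vamp5 on chromosome 6, with 1 non-coding gene, Gm52494, between them. Its brightest probe stood at 8.35, 8.58, 8.45 and 8.44 in aged males, against 8.26, 8.21, 8.27 and 8.19 in young males. In females it stood at 8.30, 8.35, 8.47 and 8.34 in aged retina, against 8.12, 8.36, 8.22 and 8.34 in young retina. The male groups did not overlap and the female groups did. The difference was 0.22 (SE 0.07, adjusted p = 0.179) in males, 0.11 (SE 0.07, adjusted p = 0.863) in females and 0.17 (SE 0.05, adjusted p = 0.164) for both sexes, so it did not pass. The other Vamp8 probe gave 0.30 in males and 0.04 in females, with SE 0.14, and it overlapped between ages in both sexes.

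The 250 bases before the start of these neighbouring genes are shown because they are the VAMP genes with the largest upward differences in aged males, a choice made after the values were seen. They come from RefSeq, build GRCm38.p6, on the minus strand, and read 5′ to 3′. Vamp5 lies at chr6:72380469-72380718 and Vamp8 at chr6:72390668-72390917. Capitals mark a match to TTCNNNGAA, a STAT element.
Vamp5: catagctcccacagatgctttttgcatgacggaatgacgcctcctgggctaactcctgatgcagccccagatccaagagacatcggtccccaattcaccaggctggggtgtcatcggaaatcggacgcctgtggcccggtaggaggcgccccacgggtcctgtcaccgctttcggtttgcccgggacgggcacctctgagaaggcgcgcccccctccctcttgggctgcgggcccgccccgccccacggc
Vamp8: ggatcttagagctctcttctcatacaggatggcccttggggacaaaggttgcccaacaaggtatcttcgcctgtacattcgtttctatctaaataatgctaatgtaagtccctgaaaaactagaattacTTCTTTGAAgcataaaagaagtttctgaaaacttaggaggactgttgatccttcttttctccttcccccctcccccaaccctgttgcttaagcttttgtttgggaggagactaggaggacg

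The Vamp5 stretch holds 66.0% G and C, and the Vamp8 stretch 43.6%. These 3 motifs were searched on both strands in the promoters of the 36 member genes with a RefSeq entry. The Vamp8 match lies 121 to 113 bases before the start, and no searched motif occurs in the Vamp5 stretch. TTCNNNGAA occurs in 7.02% of all 32851 promoters and in 3 member genes (Stx17, Syn2 and Vamp8). TAATCC, a site of the photoreceptor homeodomain factor CRX, occurs in 6.25% of all promoters and in Rims3 and Sv2b. TGACGTCA, the cyclic AMP response element, occurs in 1.55% of all promoters and in Syn1. A match is a run of letters and does not show binding.

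**Figure D1:**
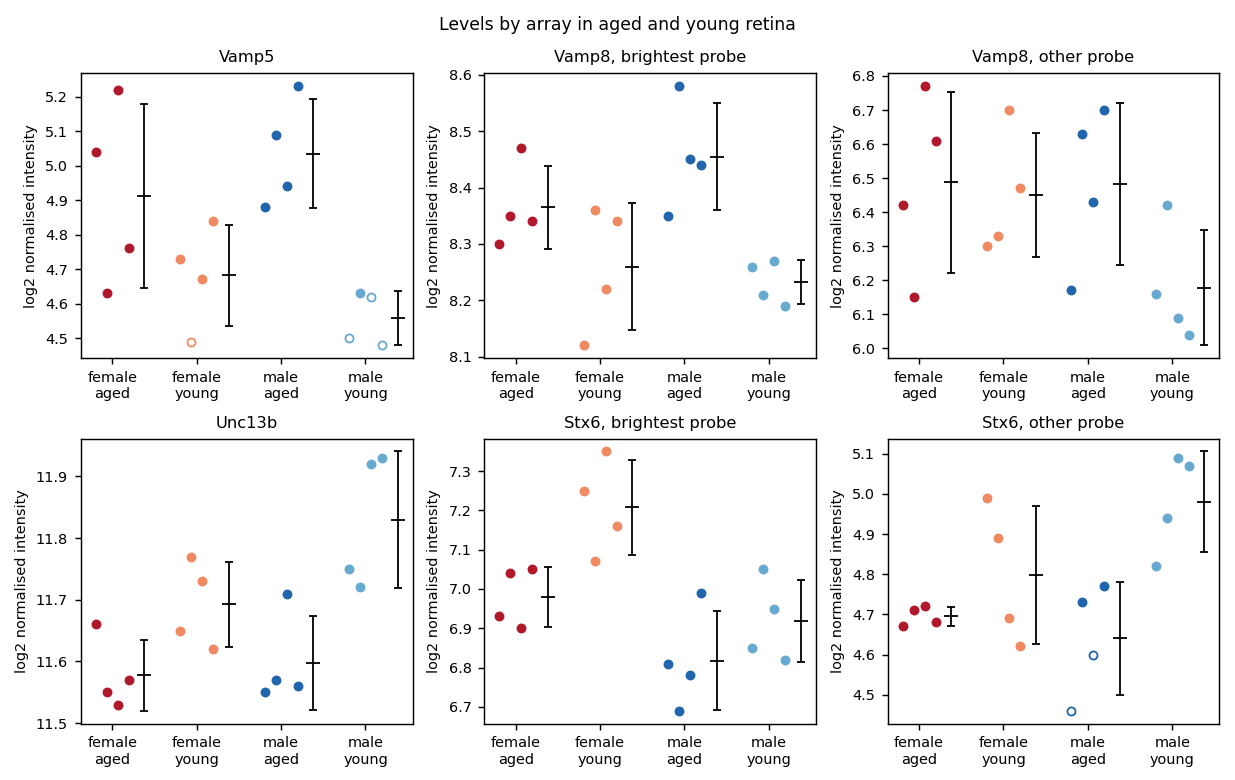
Log2 normalised intensity of 6 probes on each array, by group (aged left of young for each sex). Dots are arrays, open dots arrays where the probe was not detected, and bars the mean with its SD (n = 4); Vamp5 and the brightest Vamp8 probe separate aged from young males, and Unc13b lies lower in aged males than in young males.

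Of the priming proteins, Unc13b, the Munc13 form of photoreceptor ribbon synapses, had the lowest p in aging. It stood at 11.55, 11.57, 11.71 and 11.56 in aged males, against 11.75, 11.72, 11.92 and 11.93 in young males. In females it stood at 11.66, 11.55, 11.53 and 11.57 in aged retina, against 11.65, 11.77, 11.73 and 11.62 in young retina. Every aged male lay below every young male and the female groups overlapped. The difference was -0.23 (SE 0.07, adjusted p = 0.153) in males, -0.11 (SE 0.07, adjusted p = 0.840) in females and -0.17 (SE 0.05, 0.887-fold, adjusted p = 0.125) for both sexes. It did not pass, except in the fit with a trended, robust prior, which gave an adjusted p of 0.0478 for both sexes. Within slides it was -0.12 and -0.16 in females and -0.20 and -0.29 in males. Unc13c (0.12 in females, 0.15 in males) and Unc13d, the form used by immune cells (0.03 and -0.05), did not pass.

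The RIM proteins tether vesicles and calcium channels at the active zone. Rims1 differed by -0.06 in aged females and -0.21 in aged males (SE 0.13), and Rims2 by 0.04 and -0.05 (SE 0.09). Rims3, a short form, stood at 9.97, 9.60, 9.92 and 10.04 in aged females, against 9.69, 9.76, 9.75 and 9.75 in young females. In males it stood at 9.96, 9.69, 9.89 and 9.77 in aged retina, against 9.81, 9.91, 10.04 and 10.04 in young retina. Groups overlapped in both sexes, with differences of 0.15 in females and -0.12 in males (SE 0.09, adjusted p = 0.841 and 0.570). The difference of these, female minus male aging, was 0.27 (SE 0.13, 95% interval -0.01 to 0.55, adjusted p = 0.536).

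Among plasma-membrane SNAREs, Stx1a, the syntaxin of conventional synapses, stood at 7.01, 6.87, 6.90 and 7.03 in aged females, against 6.80, 6.94, 6.85 and 6.67 in young females. In males it stood at 6.95, 6.93, 6.88 and 6.78 in aged retina, against 6.90, 6.87, 6.96 and 7.11 in young retina. The groups overlapped in both sexes. The difference was 0.14 (SE 0.08, adjusted p = 0.802) in females and -0.08 (SE 0.08, adjusted p = 0.688) in males. Stx3, the ribbon syntaxin, had 3 detected probes, and the annotation assigns 1 of them to transcript variant A and 1, the brightest, to variant C. The variant C probe ranged from 6.88 to 7.54 in aged females and 7.0 to 7.46 in young females, and from 6.89 to 7.29 in aged males and 6.58 to 7.81 in young males. Its differences were -0.04 and -0.06 (SE 0.21), and the variant A probe gave -0.03 in females and 0.18 in males (SE 0.12). With this spread no aging difference of Stx3 was detectable. Snap23 (0.08 in both sexes) and Stx4a (-0.06 and -0.08), which serve secretion outside synapses, did not pass.

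None of the vesicle SNAREs of neurons passed the test. Vamp2, synaptobrevin 2, differed by 0.05 in aged females and 0.01 in aged males (SE 0.10). Vamp1 differed by -0.01 in females and -0.15 in males (SE 0.08, adjusted p = 0.988 and 0.402), and another of its 3 probes gave -0.04 and -0.23 (SE 0.09, adjusted p = 0.261 in males). Vamp3, cellubrevin, was at -0.04 in both sexes, while its other probe gave -0.07 in females and 0.09 in males. Stxbp4, which binds syntaxin 4, stood at 7.60, 7.40, 7.27 and 7.48 in aged males, against 7.57, 7.59, 7.73 and 7.76 in young males. Aged males lay lower on average with 1 array inside the young range, a difference of -0.23 (SE 0.10, adjusted p = 0.284), and -0.02 in females. The other Stxbp4 probe gave -0.24 in males (adjusted p = 0.245) and 0.01 in females.

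Complexins clamp the SNARE bundle. Cplx1 stood at 10.88, 10.88, 10.68 and 10.85 in aged males, against 10.89, 10.96, 11.04 and 11.07 in young males. Aged males were all lower, and the difference of -0.16 (SE 0.09, adjusted p = 0.401) did not pass. Female Cplx1 differed by -0.02, and Cplx2 by 0.03 in females and -0.03 in males. Cplx3 and Cplx4, the ribbon complexins, and Unc13a and Sv2c were not analysed here.

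Of the calcium sensors, Syt1, the main sensor of fast release, stood at 11.57, 11.52, 11.64 and 11.69 in aged females, against 11.44, 11.48, 11.58 and 11.54 in young females. In males it stood at 11.63, 11.44, 11.63 and 11.46 in aged retina, against 11.56, 11.65, 11.67 and 11.69 in young retina. The groups overlapped in both sexes, with differences of 0.09 in females and -0.10 in males (SE 0.07, adjusted p = 0.888 and 0.537). Syt4, a synaptotagmin of dense-core vesicles, stood at 10.76, 10.75, 10.65 and 10.67 in aged females, against 10.62, 10.53, 10.53 and 10.48 in young females. In males it stood at 10.73, 10.47, 10.53 and 10.32 in aged retina, against 10.63, 10.48, 10.66 and 10.55 in young retina. Aged females were all above young females, and the male groups overlapped. The difference of 0.17 in females (SE 0.08, adjusted p = 0.736) and that of -0.07 in males (SE 0.08, adjusted p = 0.741) did not pass. Over the 12 synaptotagmin probes, 9 lay above 0 in aging females (median 0.043) and 3 in aging males (median -0.071).

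SV2 and synapsin proteins belong to the vesicle itself. All 6 of their probes lay above 0 in aging females (0.01 to 0.16) and 1 of 6 in aging males (-0.22 to 0.01), and none passed. Syn1 stood at 10.29, 10.26, 10.22 and 10.11 in aged males, against 10.41, 10.37, 10.35 and 10.64 in young males. All aged males were lower, by 0.22 on average (SE 0.10, adjusted p = 0.327), and the other Syn1 probe gave -0.03. In females Syn1 differed by 0.01. Sv2a was at 0.08 in females and -0.04 in males (SE 0.07), Sv2b at 0.08 and -0.05 (SE 0.08), and Syn2 at 0.13 and 0.01 (SE 0.14).

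**Figure D2:**
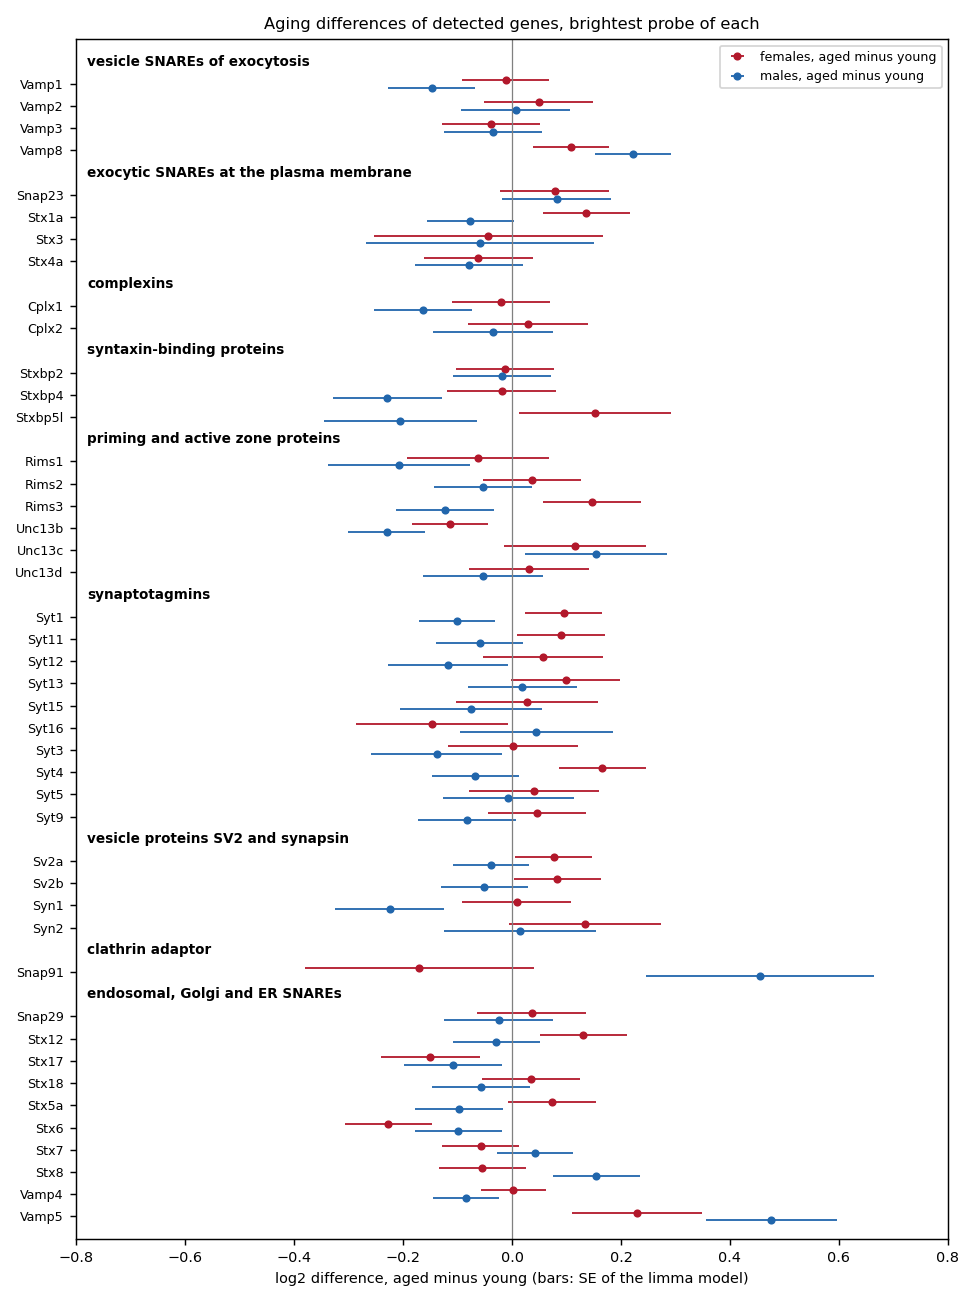
Aged minus young log2 difference of detected genes by role, brightest probe of each, in females (red) and males (blue); bars are the SE of the limma model. Most genes lie within 0.25 of 0, and Vamp5 and Snap91 in males lie farthest to the right.

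SNAREs of endosomes, Golgi and endoplasmic reticulum sort membrane inside the cell. Stx6, a syntaxin of the trans-Golgi network, stood at 6.93, 7.04, 6.90 and 7.05 in aged females, against 7.25, 7.07, 7.35 and 7.16 in young females. In males it stood at 6.81, 6.69, 6.78 and 6.99 in aged retina, against 6.85, 7.05, 6.95 and 6.82 in young retina. Aged females were all below young females and the male groups overlapped. The difference was -0.23 (SE 0.08, adjusted p = 0.472) in females, -0.10 (SE 0.08, adjusted p = 0.620) in males and -0.16 (SE 0.06, adjusted p = 0.259) for both sexes. The other Stx6 probe was detected on 2 of 4 aged male arrays and on all 4 arrays of each other group, so the lower male group lay partly at background. It gave -0.34 in males (SE 0.09, adjusted p = 0.10) and -0.11 in females. It stood at 4.46, 4.73, 4.60 and 4.77 in aged males, against 4.82, 4.94, 5.09 and 5.07 in young males, with no overlap. It is named here after its values were seen.

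Stx17, a syntaxin of autophagosomes, stood at 5.47, 5.47, 5.33 and 5.44 in aged males, against 5.56, 5.52, 5.58 and 5.49 in young males. In females it stood at 5.39, 5.14, 5.32 and 5.58 in aged retina, against 5.50, 5.45, 5.44 and 5.63 in young retina. Aged males were all below young males and the female groups overlapped. The difference was -0.15 in females and -0.11 in males (SE 0.09), and -0.13 (SE 0.06, adjusted p = 0.440) for both. Stx12, a syntaxin of recycling endosomes, differed by 0.13 in females and -0.03 in males (SE 0.08, adjusted p = 0.824 and 0.903).

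Snap91, which recruits clathrin to recover vesicle membrane, gave a different answer with each of its 2 probes. The brightest stood at 6.67, 7.26, 6.84 and 7.33 in aged females, against 7.22, 7.03, 7.56 and 6.96 in young females. In males it stood at 7.08, 6.63, 7.43 and 7.75 in aged retina, against 6.56, 7.05, 6.70 and 6.75 in young retina. The groups overlapped in both sexes. It differed by -0.17 in females and 0.46 in males (SE 0.21, adjusted p = 0.936 and 0.319), and by -0.63 as female minus male aging (SE 0.29, 95% interval -1.24 to -0.01, adjusted p = 0.525). The other probe gave 0.20 in females, -0.04 in males (SE 0.18) and 0.24 as female minus male aging.

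Of the 14 genes with more than 1 detected probe, 5 had probes of both signs in aging females and 6 in aging males. In females these were Snap91, Stx8, Stxbp4, Syt11 and Unc13d, and those in males included Snap91, Stx3, Stx8, Syt11 and Vamp3. None of the probes in these genes passed the test in either sex. The 2 Vamp8 probes and the 2 Stx6 probes each had 1 sign in both sexes.

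**Figure D3:**
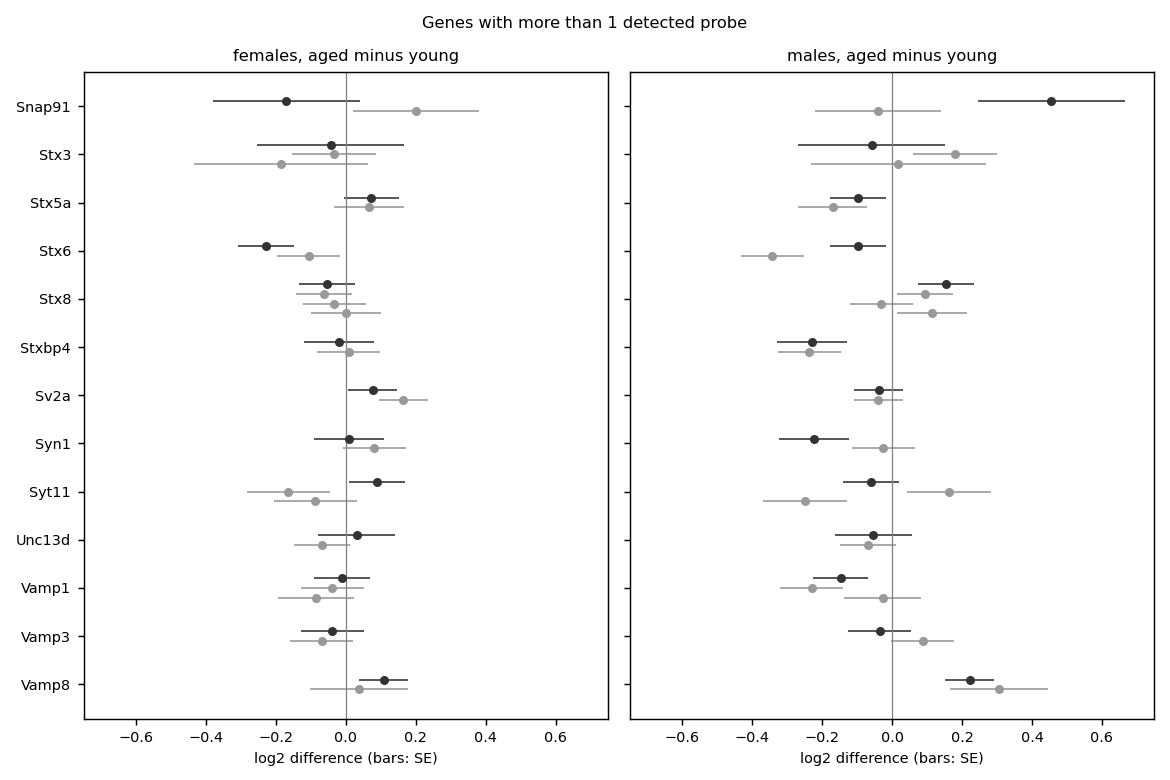
Aged minus young log2 difference of each probe of genes with more than 1 detected probe, in females (left) and males (right); dark dots are the brightest probe, grey dots the others, bars the SE. Probes of Snap91 lie on opposite sides of 0 in both sexes, and those of Vamp8 lie right of 0 in both.

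Counted without a threshold, more member probes lay above 0 in aging females and more below 0 in aging males, by little. The probes share their arrays and are not independent of each other. By array, their median deviation ran from -0.036 to 0.071 in aged females and from -0.034 to 0.072 in young females. In males it ran from -0.074 to 0.018 in aged and from -0.052 to 0.042 in young retina, so the ages overlapped in both sexes. In females 39 of 65 probes (60.0%) lay above 0, with a median of 0.027, while 49.7% of all tested probes did, with a median of -0.00099. In males 46 of 65 (70.8%) lay below 0, with a median of -0.040, against 55.9% of all probes and a median of -0.022. Differences within 0.25 of 0 made up 100% of the members and 92.9% of all probes in females, and 93.8% of the members and 87.0% of all probes in males.

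The groups separated completely for 2 probes in aging females, Stx6 and Syt4, and for 7 in aging males. Over all tested probes 3.90% and 9.08% did so. The 7 in males were Vamp5 and Vamp8, higher with age, and Unc13b, Syn1, Cplx1, Stx17 and 1 Stx6 probe, lower with age. Within slides the median of the 65 probes was 0.02 and 0.06 in aging females. In aging males it was 0.05 on the slide with 1 array of each age, that of the aged male with the 12 month age field, and -0.07 on the slide with 2 of each age. The male direction was thus not the same on both slides.

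**Figure D4:**
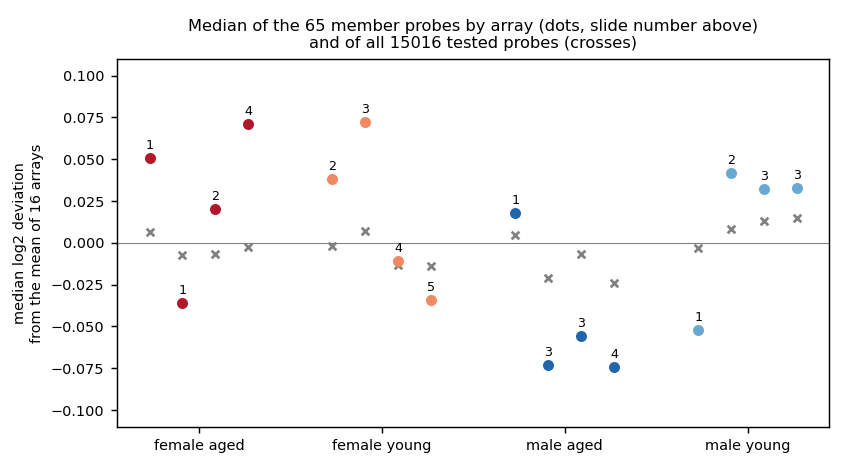
Median deviation of the 65 member probes (dots, with the slide number) and of all 15016 tested probes (crosses) from their mean over the 16 arrays, in log2 units, by group. Of the aged males 3 lie lowest, between -0.074 and -0.056, and the array with the 12 month age field lies at 0.018. The first young male lies next to these 3, at -0.052, and aged and young females overlap.

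No difference between the sexes in aging passed the limma test for any of the 15016 probes (0%). The member nearest to it had an adjusted p of 0.525, and at an unadjusted p under 0.05 there was 1 member, Snap91, where 9.34% of all probes reached that level. Female minus male aging lay above 0 for 45 of 65 member probes (69.2%), with a median of 0.086, and for 54.3% of all probes, with a median of 0.021. The members' median ranged from 0.048 to 0.11 over the alternatives, and was 0.048 without the second young male and 0.052 without the first aged female. Of the 15 detected genes best known for release in retina, all 15 lay above 0 by their brightest probe. They lay between 0.02 and 0.23 with a median of 0.12, and 14 of them lay above the median of all probes. Of all 45 member genes, 34 lay above 0 by their brightest probe. The list behind the 15 genes was chosen with earlier results of these data known, so their count is not a test. Other probes of these genes reached -0.21 for Stx3 and -0.06 for Vamp1. The 15 genes included Stx1a, Stx3, Vamp1, Vamp2, Cplx1, Cplx2, Syt1, Rims1, Rims2, Unc13b, Sv2a, Sv2b, Syn1 and Syn2. In aging females 10 of the 15 lay above 0 (median 0.036), and in aging males 2 of 15 (median -0.059).

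None of these 15 passed alone, and each 95% interval held 0. That of Stx1a ran from -0.02 to 0.45, that of Syt1 from -0.02 to 0.41, and that of Vamp2 from -0.25 to 0.34. The count of 15 was reached in 15 of 27 alternatives and was 12 at the lowest, without the first young female, with medians between 0.083 and 0.18. With median scaling and with the table scaled by the authors 14 of the 15 lay above 0, and with slide as a fixed block 13 did. The genes share their arrays and are not independent of each other. Some other retinal lists lay on the same side in female minus male aging. Above 0 were 8 of 8 cone markers (median 0.12), 8 of 10 bipolar cell markers (0.13) and 5 of 8 rod markers (0.09). So were 6 of 8 amacrine and horizontal cell markers (0.10). Ganglion cell markers (4 of 7, median 0.03) and Muller glia markers (3 of 7, median 0) lay near 0. Of the 48 tested genes that work beside the members, 32 lay above 0 (median 0.08). They held 5 of 6 for SNARE disassembly (0.16) and 9 of 12 of the vesicle membrane (0.12). Also among them were 6 of 7 of the active zone and ribbon (0.12) and 7 of 11 for endocytosis (0.08). The Rab3, Rab27 and priming genes went the other way, with 5 of 12 above 0 (median -0.025). Pigment epithelium (0 of 6, median -0.79) and lens markers (1 of 8, -1.2) lay on the other side. The release genes were not tested against these lists.

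After Snap91 and Rims3, the lowest p-values of female minus male aging were those of Syt4 (0.23, SE 0.12, adjusted p = 0.538), Syt1 (0.19, SE 0.10, adjusted p = 0.547) and Stx1a (0.21, SE 0.11, adjusted p = 0.553). Stx8, an endosomal syntaxin, gave -0.21 (SE 0.11, adjusted p = 0.564). By role, all 7 probes of syntaxin-binding proteins and all 6 of SV2 and synapsin lay above 0 (medians 0.087 and 0.13). The 15 endosomal, Golgi and endoplasmic reticulum probes were split, 7 above and 8 below.

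**Figure D5:**
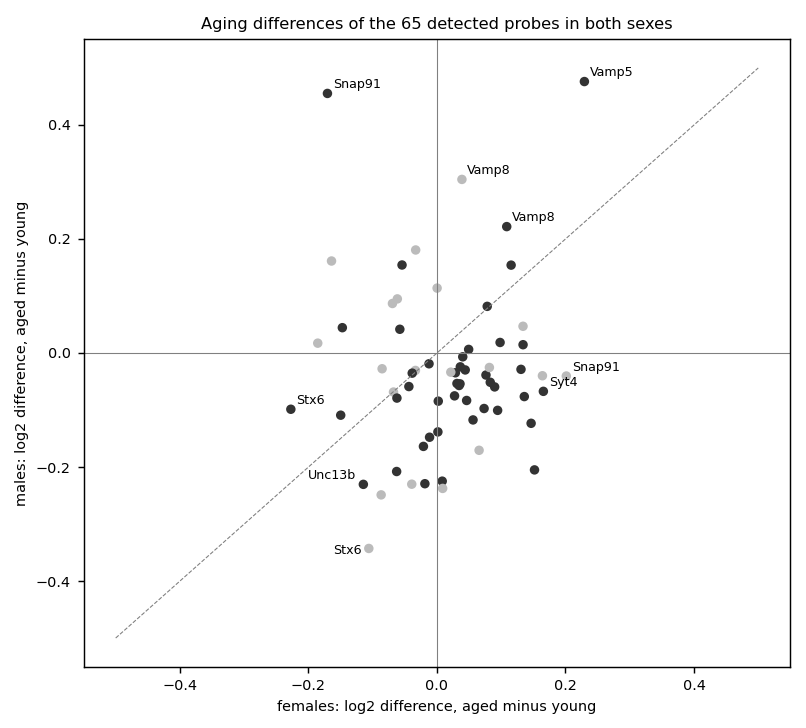
Aged minus young log2 difference of the 65 detected probes in females (horizontal) and in males (vertical); dark dots are the brightest probe of a gene, grey dots other probes, and the dashed line marks equal differences. More dots lie below the line than above it, and Vamp5 and 1 Snap91 probe lie highest.

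Between young females and young males no member passed, against 0.393% of all probes, and 7 of 65 had an unadjusted p under 0.05, against 15.6% of all probes. Stx6 came nearest. Its brightest probe ranged from 7.07 to 7.35 in young females and from 6.82 to 7.05 in young males, without overlap, and the difference was 0.29 (SE 0.08, adjusted p = 0.125). The other Stx6 probe had the opposite sign, -0.18. Stx8 stood at 8.33, 8.44, 8.34 and 8.35 in young females, against 8.09, 8.28, 8.13 and 7.99 in young males. Young females were all higher, by 0.24 on average (SE 0.08, adjusted p = 0.169), while its other 3 probes lay between -0.12 and 0.13. Rims3 was lower in every young female than in any young male, at -0.21 (SE 0.09, adjusted p = 0.286). Of all members 4 separated the young sexes completely, against 7.66% of all probes.

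Between aged females and aged males no member passed either, against 0.686% of all probes. At an unadjusted p under 0.05 there were 13 member probes, 10 of them higher in females, where 7.05% of all probes were higher and 5.67% lower at that level. In all 45 of 65 (69.2%) were higher in aged females, median 0.061, against 51.8% of all probes and a median of 0.0065. Complete separation was found for 5 member probes, against 6.77% of all probes. These values share the aged male arrays with aging in males. Within slides the median of the members was -0.01 on one and 0.11 on the other. In the same comparison pigment epithelium markers had a median of -1.4 (1 of 6 called) and lens markers one of -0.88 (none of 8 called), and their part was not tested.

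Syt15, a synaptotagmin with no calcium binding of its own, had the lowest p among the brightest probes. It stood at 5.30, 4.77, 5.07 and 5.01 in aged females, against 5.10, 4.56, 4.53 and 4.59 in aged males. Of the aged males 3 lay below all aged females, and the first lay inside the female range. The difference was 0.34 (SE 0.13, adjusted p = 0.241), and without the first aged male it was 0.48 (adjusted p = 0.0397). The probe was detected on 4 aged female arrays and on 2 of 4 aged male arrays, so the lower group lay partly at background, and the difference was 0.90 both without the normexp correction (adjusted p = 0.249) and with the authors' scaled table (0.277). Within slides, Syt15 in aged females minus aged males was -0.06 on one slide and 0.43 on the other. Young females (4.93 to 5.13) also lay above young males (4.60 to 4.89) in Syt15, without overlap. That young difference was 0.24 (SE 0.13, limma adjusted p = 0.357) and did not pass. Stxbp4 differed by 0.23 (SE 0.10, adjusted p = 0.311) between the aged sexes. Its other probe differed by 0.31 (SE 0.09, adjusted p = 0.145), the lowest adjusted p of any member in this comparison. Syt13 (0.25, SE 0.10), Syt4 (0.20, SE 0.08), Sv2b (0.18, SE 0.08) and Stx6 (0.16, SE 0.08) had adjusted p-values of 0.308, 0.319, 0.369 and 0.442.

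Genes that work beside the members were counted in the same way. Of 68 listed genes for SNARE recycling, vesicle membranes, the ribbon, Rab3 proteins and endocytosis, 48 were tested and none was called in aging of either sex. At an unadjusted p under 0.05 there were 2 of 48 in females and 7 of 48 in males, where 7.14% and 14.6% of all probes reached that level. Of the 48, 29 lay above 0 in aging females (median 0.020), against 49.7% of all probes, and 16 in aging males (median -0.065), where 55.9% of all probes lay below 0. Nsf, the ATPase that takes SNARE bundles apart, was at 0.21 in aged females (SE 0.08, adjusted p = 0.538), and Syp, synaptophysin of the vesicle membrane, at 0.16 (SE 0.07, adjusted p = 0.555). Unc119, a photoreceptor lipid-binding protein, was at -0.21 in aged females (SE 0.10, adjusted p = 0.724). In aged males Napg, a SNAP cofactor of Nsf, was at -0.21 (SE 0.06, adjusted p = 0.146). Bin1, an amphiphysin of endocytosis, was at -0.27 (SE 0.09, adjusted p = 0.164), and Cltb, a clathrin light chain, at 0.24 (SE 0.09, adjusted p = 0.230).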

How the data were processed

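Probe intensity values were deposited by the authors as array software output, per the file headers: 1 signal per probe and array, with 20.7 to 24.2% below 0, so background had been subtracted. Each signal came with a detection p-value, likewise deposited. A second deposited intensity table is the first multiplied by 1 factor per array (0.821 to 1.25). The software is not given in the sources used here. Per the labels, total RNA was column-cleaned and made into biotinylated cRNA.

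Intensities were normalised with neqc (limma 3.58.1, R 4.3.3, statmod 1.5.0): normexp with controls inferred from detection p-values, offset 16, quantile, log2. All 15016 detected probes entered 1 limma model (lmFit, eBayes, 4 group means, 12 residual degrees of freedom) with 6 two-sided comparisons, each with Benjamini-Hochberg adjustment over all probes and a threshold of 0.05. Slides were read from the array names in the labels. Names were updated through RefSeq symbols (17551 probes) and synonyms (7033). Genes with several probes are represented by the brightest one tested. Named are members that passed, the 6 genes of lowest p in each comparison, and a list of 23 release genes, of which 15 were tested. The members and lists were chosen with earlier results of these data known. The model was run on simulated data with independent noise and added shifts larger than any aging difference of a member. That run does not cover differences of the size found here. Alternatives covered background, scaling, filters, priors, weights, blocks and single arrays. Some members are counted but not reported here by name.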

Additional observations from a re-analysis of the deposited data

Results flagged for a closer look

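In 5 of 104 groups of 4 arrays, over 26 genes named in the text, 1 array stood far from the other 3 (a gap above Dixon's 95% critical value for the group's range). Chance flags about 1 in 20 groups, so a number of this size is near what chance gives. Among aged males, Unc13b was 11.71 on the third array, against 11.55 to 11.57 on the others. Sv2b was 11.51 on the fourth aged male, against 11.27 to 11.30. Syt15 was 5.10 on the first aged male, against 4.53 to 4.59. That array is the one whose age field gives 12 months. Among young animals, Syn2 was 7.95 on the first male, against 8.20 to 8.22, and Rims3 was 9.69 on the first female, against 9.75 to 9.76.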

How the results depend on the processing

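Over 28 alternative settings, 1723 of 1747 values of single genes kept their side of the threshold, 15 lost a call, 9 gained one and no called value turned its sign, while 50 uncalled values did. None of 166 medians moved by 1 SD between replicates (0.046). That bound exceeds the size of several medians, among them 0.027 in aging females and -0.040 in aging males. Such a median could fall to 0 without counting as moved. The interaction median fell from 0.086 to 0.048 at the lowest and did not count as moved. For aging averaged over both sexes, the 1 call (Vamp5) became 0 with median scaling, the authors' scaled values, no detection filter, a detection p under 0.01 on all arrays (which leaves Vamp5 untested) and the replicate block, and 2 with a trended, robust prior (Unc13b added). It ranged from 0 to 1 when single arrays were left out, with 0 without young females 1 to 3, aged females 1 and 3, each young male, or aged males 2 and 4. In males the count of 0 became 2 with array weights (Vamp5 and Stx6), 1 with slide as a fixed block, 1 with slide as a random block and 1 with only the compared groups, and ranged from 0 to 1 with arrays left out (1, Vamp5, without aged females 2 or 3 or aged male 1). Between aged females and aged males it ranged from 0 to 1 (1, Syt15, without aged male 1). At an unadjusted p the counts were 2, 10, 6, 7, 13 and 1 for aging in females, in males, in both, the sexes when young, when aged, and the interaction. Causes were not tested. Same-numbered arrays of different groups correlated over 0.1 in 4 of 24 pairs (-0.341 to 0.381). Samples were treated as unpaired, and these correlations cannot show whether the numbers pair them. The replicate block changed no other count. Low signals limit Vamp5, the second Stx6 probe and Syt15, which were detected on 12, 14 and 13 of 16 arrays.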
